A study of Mus musculus with 43 samples.

Results

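The 10 genes described here encode small proline-rich proteins of the cornified envelope: Sprr1a, Sprr1b, Sprr2d, Sprr2e, Sprr2f, Sprr2g, Sprr2h, Sprr2i, Sprr2k and Sprr3. They were chosen by symbol from a table of 23256 genes, which holds 6 further rows whose symbol starts with Sprr. RNA was measured in 43 mouse back-skin libraries of 3 strains and 3 ultraviolet B (UVB) regimens. All mice were females 10 to 13 weeks old. NZM is NZM2328, the lupus-prone line of the study's title. The labels do not say what iNZM is, nor which strain WT is. Acute UVB was a single exposure of 300 mJ/cm2, chronic UVB was 100 mJ/cm2 on each of 5 days, and the third regimen was no UVB. Biopsies were taken 24 hours after the last exposure. There were 5 libraries per group, and 4 each for unexposed iNZM and unexposed WT skin. The labels do not state that each library is a separate animal, so p-values measure only the spread between these libraries. Libraries are named below by their sample number.

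Depth was 18.5M to 37.8M reads per library. The unit is a normalised read count, called a value below, which is a read count divided by the library's size factor. Keratinocyte markers matched the tissue label: Krt5 was at least 42814 and Krt10 at least 1484 in every library. Ifnar1, which encodes part of the receptor for type I interferons, was 304 to 579 in the 14 iNZM libraries and at least 716 in the 29 others. Hair follicle markers set 9 libraries apart, with scores of at least 5.79 against at most 2.65 in the other 34. These were NZM acute 5, NZM chronic 17, 55 and 56, iNZM acute 6 and 49, and iNZM chronic 22, 24 and 25. The score is the mean of log2(value + 1) over 17 hair shaft and follicle genes, each centred over all libraries. Skin was measured in bulk, so fewer cells of a type and less RNA per cell cannot be told apart.

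Small proline-rich proteins are bridging pieces of the cornified envelope, the protein shell that replaces the membrane of a dying keratinocyte. Transglutaminases join their glutamine- and lysine-rich ends to loricrin, involucrin and other envelope proteins. In unstressed epidermis between the follicles most of them are scarce, and wounding, ultraviolet light and inflammation raise them, while SPRR3 is best known from the linings of the mouth and oesophagus. The genes lie side by side in the epidermal differentiation complex, and AP-1, octamer-binding, ETS and KLF factors are known to act on their promoters.

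The members lie on chromosome 3 between positions 92339140 (Sprr2d) and 92485895 (Sprr1a) of build GRCm38, in the order Sprr2d, Sprr2e, Sprr2f, Sprr2g, Sprr2h, Sprr2i, Sprr2k, Sprr1b, Sprr3 and Sprr1a. The Sprr2 genes are on the plus strand and the other members on the minus strand. Each has 2 exons, and the exons add up to between 609 bases (Sprr2f) and 1222 bases (Sprr3). GENCODE lists Sprr2g as a polymorphic pseudogene and the other 9 as protein-coding. Their longest transcripts are 40.1% (Sprr2f and Sprr3) to 80.5% (Sprr2f and Sprr2i) identical. None of the 10 shares a stretch as long as a read (151 bases) with another Sprr transcript. The build is not that of NZM2328, and the labels do not say whether it is that of WT. The effect of strain variants on alignment was not tested.

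Promoter sequence is shown for 7 members because it separates the genes by shared motifs. RefSeq start sites on GRCm38.p6 gave a window of 250 bases before to 50 after the start for 9 members; Sprr2g is named only. The sequences are the 200 bases before the start, 5′ to 3′ on the gene's strand. In capitals are matches to the AP-1 motif (TGANTCA) and the octamer (ATGCNAAT, here read on the other strand). The stretches are chr3:92485882-92486081 (Sprr1a, minus strand), chr3:92438780-92438979 (Sprr1b, minus), chr3:92338940-92339139 (Sprr2d, plus), chr3:92364987-92365186 (Sprr2f, plus), chr3:92385485-92385684 (Sprr2h, plus), chr3:92432382-92432581 (Sprr2k, plus) and chr3:92458721-92458920 (Sprr3, minus).
Sprr1a: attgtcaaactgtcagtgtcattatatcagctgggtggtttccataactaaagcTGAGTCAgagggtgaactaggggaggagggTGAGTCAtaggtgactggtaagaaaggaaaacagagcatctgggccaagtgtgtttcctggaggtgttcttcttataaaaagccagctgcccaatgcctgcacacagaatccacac
Sprr1b: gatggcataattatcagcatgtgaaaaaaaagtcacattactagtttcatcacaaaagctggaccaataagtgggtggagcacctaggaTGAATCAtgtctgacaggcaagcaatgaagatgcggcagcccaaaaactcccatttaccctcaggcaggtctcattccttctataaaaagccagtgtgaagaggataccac
Sprr2d: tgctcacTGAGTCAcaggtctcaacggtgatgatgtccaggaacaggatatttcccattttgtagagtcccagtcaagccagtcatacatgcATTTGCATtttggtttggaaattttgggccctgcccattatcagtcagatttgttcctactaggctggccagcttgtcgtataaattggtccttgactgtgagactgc
Sprr2f: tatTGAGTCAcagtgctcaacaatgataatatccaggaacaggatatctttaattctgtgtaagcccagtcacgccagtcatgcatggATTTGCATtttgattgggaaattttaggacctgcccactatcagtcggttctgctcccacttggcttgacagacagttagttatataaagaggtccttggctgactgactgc
Sprr2h: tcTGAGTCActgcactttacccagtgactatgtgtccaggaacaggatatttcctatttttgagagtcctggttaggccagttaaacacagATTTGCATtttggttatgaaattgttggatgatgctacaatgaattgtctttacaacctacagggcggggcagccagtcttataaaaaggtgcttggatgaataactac
Sprr2k: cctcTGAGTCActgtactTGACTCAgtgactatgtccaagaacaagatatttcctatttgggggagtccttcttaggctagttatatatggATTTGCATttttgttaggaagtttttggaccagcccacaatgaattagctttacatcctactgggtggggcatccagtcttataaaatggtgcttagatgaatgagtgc
Sprr3: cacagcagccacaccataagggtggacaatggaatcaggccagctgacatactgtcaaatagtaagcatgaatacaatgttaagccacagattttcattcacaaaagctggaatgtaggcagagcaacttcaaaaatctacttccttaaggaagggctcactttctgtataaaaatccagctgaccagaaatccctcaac

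The AP-1 motif, searched on both strands, was present in 8 of the 9 member windows and in 7.81% of all 32851 windows. Sprr3 was the member without it. In Sprr2d, Sprr2e and Sprr2i it began 193 bases before the start, and in Sprr2f, Sprr2h and Sprr2k 197, 198 and 196 bases before. Sprr2k had another match at 182 bases, Sprr1a had matches at 146 and 116 bases, and Sprr1b had 1 at 111 bases. The octamer was present in all 6 Sprr2 members with a window, where it began between 112 and 108 bases before the start, and in 3.15% of all windows. These members also resemble one another in sequence, up to 89.1% over the window (Sprr2d and Sprr2e), so their matches are not independent. The KLF motif (CCACCC) was found in 4 member windows (31.5% of all windows), the ETS cores (CCGGAA or AGGAAGT) in 2 (22.8%) and the antioxidant motif (TGACNNNGC) in 2 (12.4%). The antioxidant match of Sprr1a overlaps its AP-1 match at 146 bases. A match describes letters only; factor binding was not measured.

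**Figure D1:**
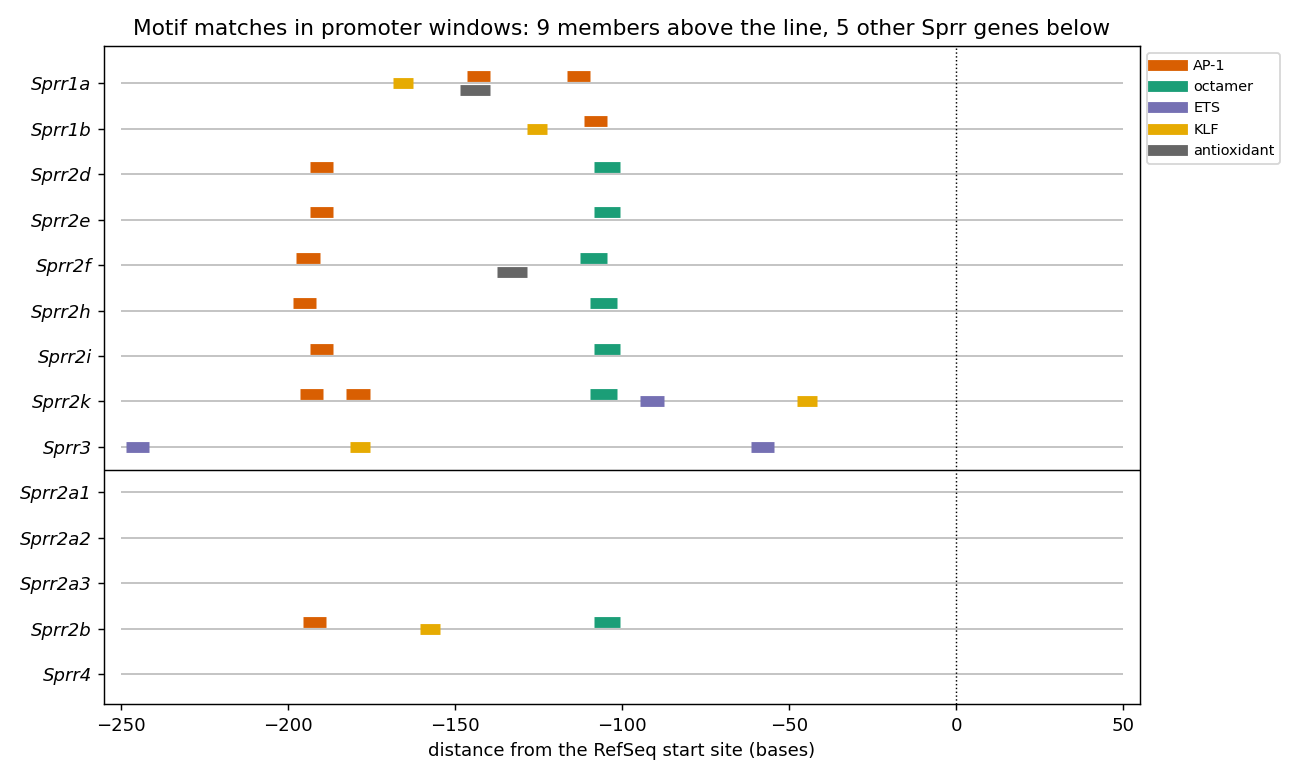
Motif matches in promoter windows of 9 members (above the line) and 5 other Sprr genes (below), by distance in bases from the RefSeq start site; coloured bars are matches. The AP-1 and octamer matches of the 6 Sprr2 members line up, as do those of Sprr2b below the line, and Sprr3 has neither.

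A single UVB dose raised most of the 10 members in every strain. Of the other Sprr rows of the table, Sprr2j-ps rose in every strain as well, while Sprr2a3 fell in iNZM and WT. The mean of Sprr2j-ps went from 0.388 to 50.6 in NZM, 6.67 to 62.5 in iNZM and 0 to 30.1 in WT. In the fit over 19170 genes (limma, adjusted p below 0.05), 9 of 10 members rose in NZM, 8 in iNZM and 10 in WT, and none fell. Of all genes tested, 10.6%, 12.8% and 10.4% rose and 10.7%, 12.4% and 11.3% fell. The median difference of the members was 5.38 in NZM, 3.21 in iNZM and 6.37 in WT on the scale of log2(value + 1), beside 0.02, 0.001 and 0.00 over all genes. Sprr2k and Sprr3 reached the expression minimum (a value of 10 in 4 libraries) through acute libraries alone, so they could enter the test only by being high there. The medians above include both genes. Of the 8 others, 7, 6 and 8 rose.

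After 5 daily doses the members separated. In WT skin 8 of 10 rose against unexposed skin (18.4% of all genes), in NZM skin 2 of 10 (9.2%) and in iNZM skin 1 of 10 (13.1%), and none fell (16.8%, 9.78% and 15.7% of all genes). Set against acute UVB, 6 members were lower after chronic UVB in NZM (3.76% of all genes), 5 in iNZM (4.45%) and 5 in WT (17.7%). Without Sprr2k and Sprr3, which entered the test only by being high in acute libraries, these counts were 4, 4 and 3 of 8. No member was higher in NZM (3.79%) or iNZM (3.81%), and Sprr1b was in WT (19.6%). The acute and chronic comparisons with unexposed skin share the same unexposed libraries. Sprr2f, Sprr2g and Sprr2i were called lower after chronic than after acute UVB in all 3 strains, as was Sprr2k. Sprr1a, Sprr2d and Sprr2h passed this test in no strain. In iNZM the acute and chronic values of every member overlapped, as did those of most genes. Of all 19170 genes, 1.76% were higher and 1.58% lower after chronic UVB with no overlap. The iNZM calls were lost when only the groups compared entered the fit.

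**Figure D2:**
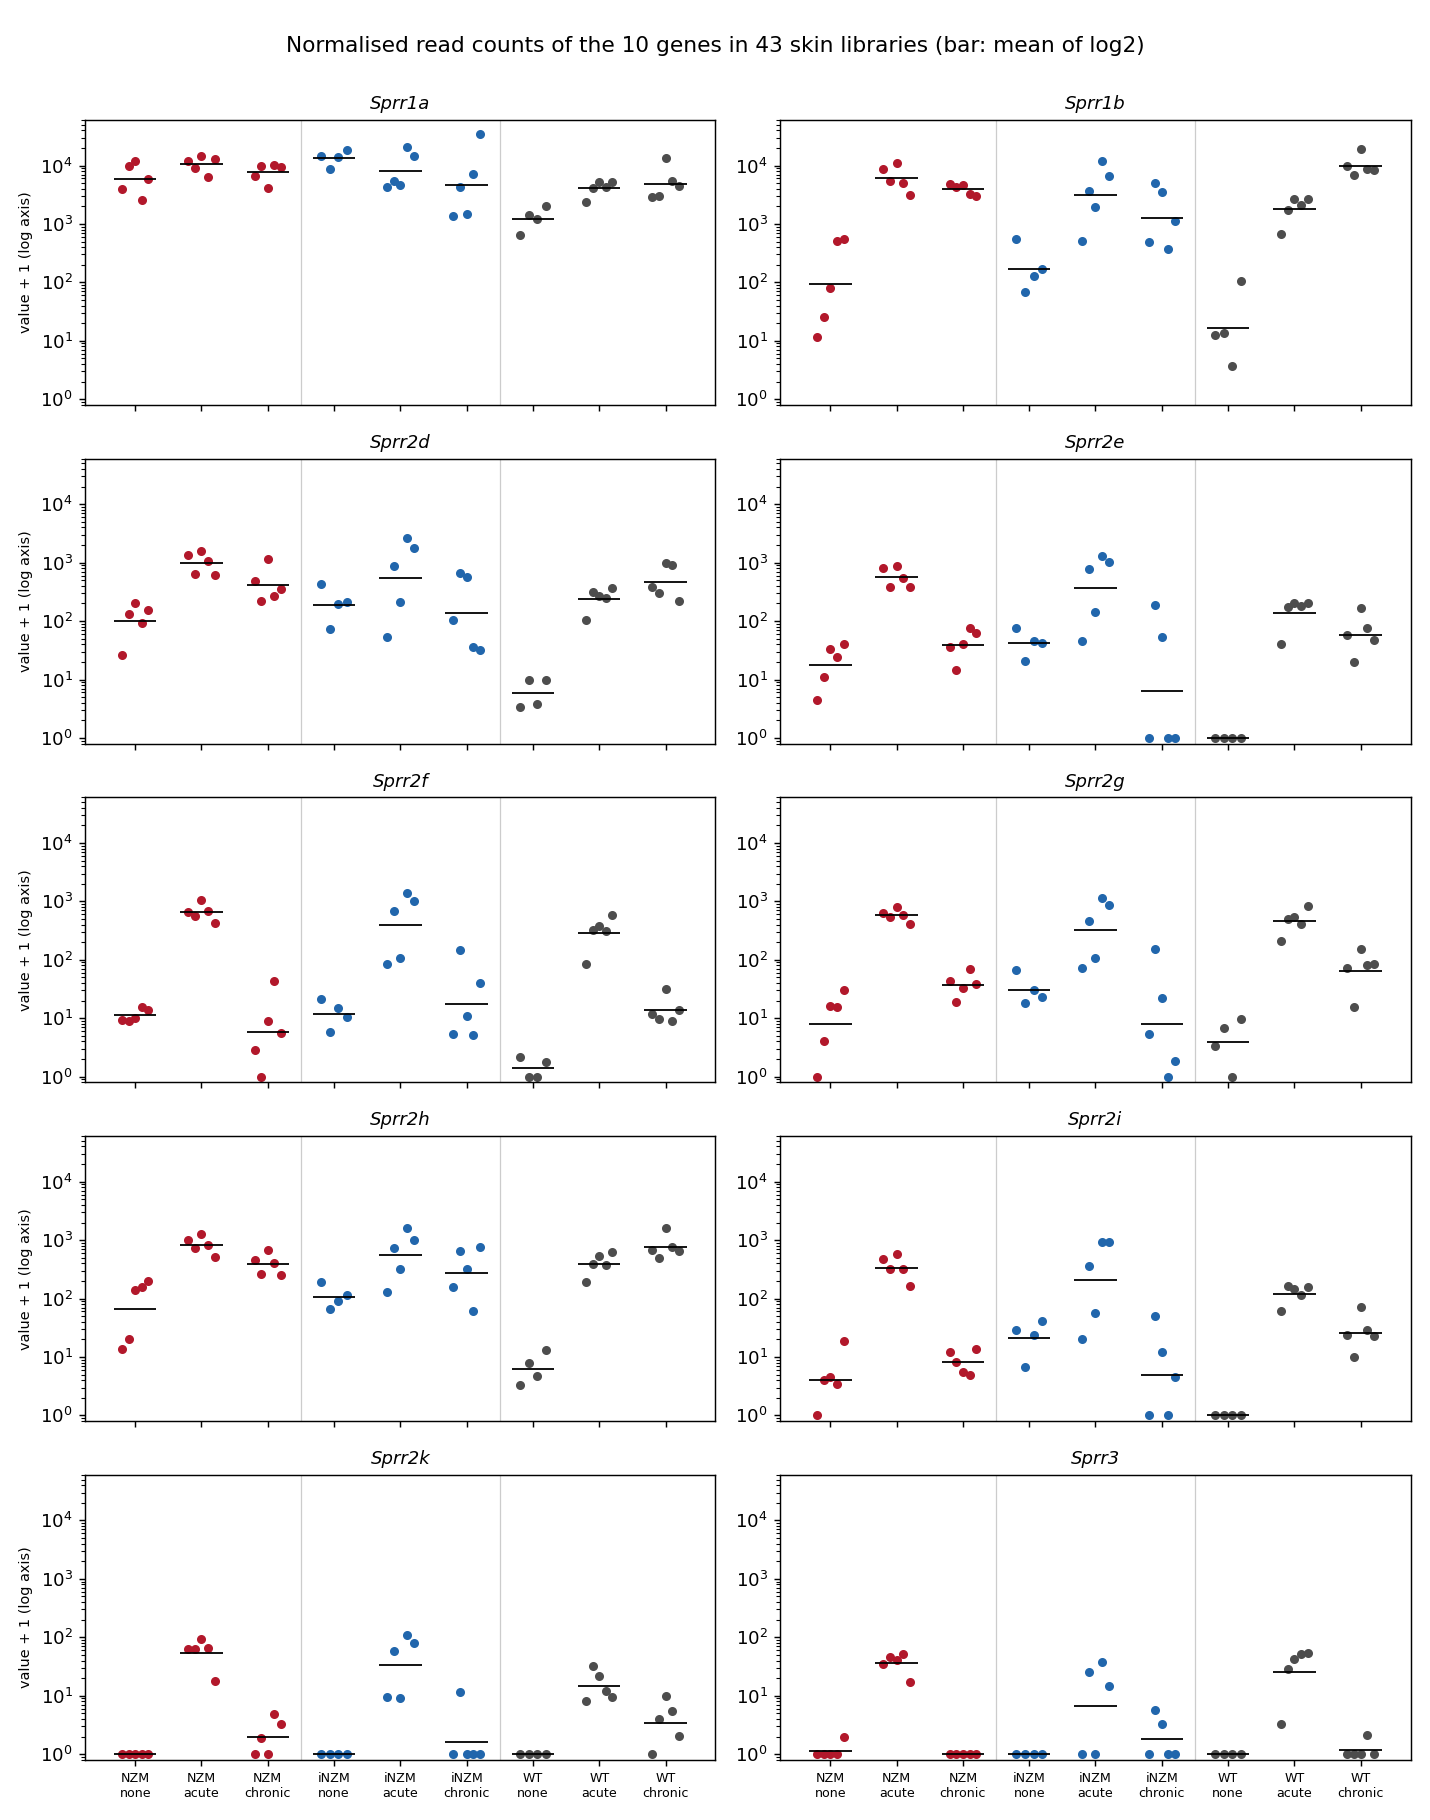
Value + 1 of each member in 43 libraries (log axis), by strain and UVB regimen; each point is a library and each bar the mean of log2(value + 1). Sprr2f, Sprr2i, Sprr2k and Sprr3 are high in acute libraries and low in most others, while Sprr1b, Sprr2d and Sprr2h are high in both exposed groups of NZM and WT. Sprr2k and Sprr3 entered the test only by being high in acute libraries.

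Sprr1a, an SPRR1 protein that makes up much of the family's RNA in unexposed skin, had the smallest acute difference of the members in each strain. In NZM skin it was 2544, 3920.2, 5785, 9685 and 11967 in unexposed libraries, 6422, 9059, 12087, 12797 and 14765 after acute UVB and 4092, 6738, 9407, 9741 and 10156 after chronic UVB. In iNZM skin it was 8622, 13832, 14501 and 18261 in unexposed libraries, 4310.4, 4609, 5500.3, 14387 and 20758 after acute UVB and 1370.4, 1465, 4306, 7136 and 34371 after chronic UVB. In WT skin it was 644, 1190.2, 1398 and 2043 in unexposed libraries, 2338, 4178, 4240.0, 5125 and 5274 after acute UVB and 2887, 3044, 4414, 5337 and 13593 after chronic UVB. The groups overlapped in NZM and iNZM, while every exposed WT library lay above every unexposed one. The acute difference was 0.86 ± 0.57 (adjusted p = 0.307) in NZM, -0.74 ± 0.61 (adjusted p = 0.385) in iNZM and 1.74 ± 0.61 (adjusted p = 0.0356) in WT. The chronic difference was 2.01 ± 0.61 (adjusted p = 0.00991) in WT. In iNZM the chronic difference was -1.53 ± 0.61 (adjusted p = 0.0555). That group held both the lowest exposed library of the series for Sprr1a and its highest value in all libraries, 34371 in iNZM chronic 25, and without that library the difference passed the test. The acute call in WT was lost with edgeR, and without WT acute 13, 15, 51 or 52 or WT unexposed 41, 43 or 44 (adjusted p up to 0.129 over all settings).

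Sprr1b, the other SPRR1 protein, was the only member called after chronic UVB in all 3 strains. In NZM skin it was 10.5, 24.1, 79.8, 514 and 546 in unexposed libraries, 3157, 4976, 5454, 8685 and 11020.2 after acute UVB and 3005, 3225, 4317, 4577 and 4816 after chronic UVB. In iNZM skin it was 66.1, 125, 171 and 555 in unexposed libraries, 501, 1933, 3665, 6525 and 12028 after acute UVB and 364, 484, 1116, 3545 and 5005 after chronic UVB. In WT skin it was 2.75, 11.6, 12.9 and 106 in unexposed libraries, 684, 1735, 2112, 2639 and 2715 after acute UVB and 6833, 8489.6, 8713, 9764 and 19207 after chronic UVB. No exposed library overlapped the unexposed ones in NZM or WT, and in iNZM both exposed groups overlapped them. The mean was 28.3-fold higher after acute UVB in NZM, 21.5-fold in iNZM and 59.2-fold in WT, with log2 differences of 6.04 ± 0.88 (adjusted p = 5.13e-06), 4.19 ± 0.94 (adjusted p = 0.00105) and 6.77 ± 0.94 (adjusted p = 1.11e-06). After chronic UVB it was 16.97-fold, 9.17-fold and 317-fold higher, with differences of 5.41 ± 0.88 (adjusted p = 6.19e-05), 2.93 ± 0.94 (adjusted p = 0.0194) and 9.25 ± 0.94 (adjusted p = 3.76e-09). In WT skin it was 5.36-fold higher after chronic than after acute UVB, 2.47 ± 0.88 (adjusted p = 0.0254), with no overlap between the 5 and 5 libraries. That call was lost without WT acute 50 or WT chronic 28, and the chronic call in iNZM without iNZM chronic 22 or iNZM unexposed 38 or 39.

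Sprr2f had the largest chronic minus acute difference of the members in NZM skin. It is an SPRR2 gene, from the group of short, near-repeat proteins of this cluster. In NZM skin it was 8.03, 8.17, 9.25, 12.6 and 14.7 in unexposed libraries, 419, 571, 655, 686 and 1067 after acute UVB and 0, 1.89, 4.57, 7.80 and 41.6 after chronic UVB. In iNZM skin it was 4.86, 9.38, 14.02 and 20.7 in unexposed libraries, 83.8, 105, 683, 1023 and 1385 after acute UVB and 4.16, 4.45, 9.99, 38.3 and 144 after chronic UVB. In WT skin it was 0, 0, 0.795 and 1.16 in unexposed libraries, 82.97, 313, 321, 379 and 581 after acute UVB and 7.97, 8.83, 10.98, 12.8 and 30.5 after chronic UVB. Acute libraries lay above all unexposed libraries in each strain, and above all chronic ones in NZM and WT. In NZM the mean was 10.5 ± 2.95 (SD, n = 5) unexposed, 679 ± 239.8 (n = 5) after acute and 11.2 ± 17.3 (n = 5) after chronic UVB. Its acute differences were 5.85 ± 0.80 (adjusted p = 1.93e-06) in NZM, 5.03 ± 0.85 (adjusted p = 3.8e-05) in iNZM and 7.67 ± 0.85 (adjusted p = 2.25e-08) in WT. Chronic minus acute was -6.83 ± 0.80 (adjusted p = 2.56e-06), -4.45 ± 0.80 (adjusted p = 0.000511) and -4.39 ± 0.80 (adjusted p = 4.74e-05). Against unexposed skin the chronic difference was -0.98 ± 0.80 (adjusted p = 0.412) in NZM, with a 95% interval of -2.55 to 0.59, and 3.27 ± 0.85 (adjusted p = 0.00296) in WT. The WT call was lost at a pseudocount of 8, 1.31 ± 0.65 (adjusted p = 0.114). Unexposed WT skin held 2 reads of Sprr2f in 4 libraries, so its fold of 692 after acute UVB has a counting interval of 191 to 5720.4.

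Sprr2i and Sprr2g, 2 further SPRR2 genes, were also highest after acute UVB in each strain, by group mean. Sprr2i was 0, 2.44, 3.01, 3.47 and 17.5 in unexposed NZM skin, 161, 316, 317, 479 and 569.8 after acute and 3.86, 4.46, 7.16, 11.4 and 12.6 after chronic UVB. It ranged from 5.83 to 39.6, 19.3 to 945 and 0 to 48.8 in the same order in iNZM. In WT it had no reads in the 4 unexposed libraries, 60.8 to 160.4 after acute UVB and 8.83 to 69.7 after chronic UVB. The acute and chronic values of NZM did not overlap, and in WT 1 acute library lay below the highest chronic one. With 3 reads per group as the floor, the WT mean was at least 176-fold higher after acute and at least 41.8-fold higher after chronic UVB; the floor covers counting error only. Chronic minus acute was -5.38 ± 0.88 (adjusted p = 0.000152) in NZM, -5.39 ± 0.88 (adjusted p = 0.000163) in iNZM and -2.24 ± 0.88 (adjusted p = 0.042) in WT. The WT call was lost at a pseudocount of 0.5 and without WT acute 13, 15, 51 or 52 or WT chronic 27, 29, 58 or 59. Sprr2g was 12.4 ± 11.5 (SD, n = 5), 594 ± 146 (n = 5) and 39.9 ± 18.6 (n = 5) in unexposed, acute and chronic NZM skin. In WT skin it was 4.25 ± 3.86 (SD, n = 4), 495 ± 224 (n = 5) and 80.4 ± 48.5 (n = 5). Every acute library of these strains was above every chronic one. Its chronic minus acute difference was -3.95 ± 0.94 (adjusted p = 0.00684) in NZM, -5.32 ± 0.94 (adjusted p = 0.000433) in iNZM and -2.79 ± 0.94 (adjusted p = 0.018) in WT, the last lost without WT chronic 27.

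Sprr2e was also mainly an acute gene in the NZM lines. It was 3.50, 10.04, 23.2, 32.4 and 39.7 in unexposed NZM skin, 375, 386, 545, 797 and 889.7 after acute and 13.4, 35.01, 38.98, 60.6 and 74.03 after chronic UVB. In iNZM it ranged over 19.4 to 76.3, 45.3 to 1300.0 and 0 to 190.5. Unexposed WT skin had no reads, acute WT skin 39.7 to 202 and chronic WT skin 19.1 to 164. The acute NZM libraries did not overlap either other group, whereas acute and chronic WT libraries overlapped. Chronic minus acute was -3.83 ± 1.01 (adjusted p = 0.0148) in NZM, lost without NZM chronic 17, -5.87 ± 1.01 (adjusted p = 0.000327) in iNZM and -1.25 ± 1.01 (adjusted p = 0.353) in WT. In WT it rose after chronic UVB by 5.87 ± 1.08, with a mean at least 99.9-fold higher. The acute rise in iNZM, 3.15 ± 1.08 (adjusted p = 0.0282), was lost without iNZM acute 9, 10 or 48 or iNZM unexposed 38, 39 or 40.

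Sprr2d and Sprr2h, also SPRR2 genes, passed the test after chronic as well as acute UVB in WT skin. Sprr2d was 2.32, 2.75, 8.74 and 8.90 in unexposed WT skin, 105, 243, 273, 309.6 and 366 after acute and 224, 300.2, 375, 927 and 994 after chronic UVB. Sprr2h in the same WT libraries was 2.32, 3.66, 6.92 and 11.9, then 189, 376, 386, 533 and 621, then 486, 663, 682, 772 and 1583. All exposed WT libraries lay above all unexposed ones for both genes, and acute and chronic overlapped. In NZM, Sprr2h was 12.8, 19.1, 139, 155 and 197 unexposed, 521, 722, 821, 1002 and 1259 after acute and 254, 258, 413, 458 and 683 after chronic UVB. Here too both exposed groups stood above the unexposed libraries. Sprr2h rose after chronic UVB by 2.56 ± 0.66 (adjusted p = 0.00692) in NZM and 6.93 ± 0.69 (adjusted p = 3.35e-09) in WT, and the difference was 1.37 ± 0.69 (adjusted p = 0.131) in iNZM. For Sprr2d these were 2.04 ± 0.81 (adjusted p = 0.07), 6.33 ± 0.86 (adjusted p = 8.05e-07) and -0.48 ± 0.86 (adjusted p = 0.703). Chronic minus acute for Sprr2h was -1.10 ± 0.66, -0.99 ± 0.66 and 0.97 ± 0.66 in NZM, iNZM and WT, with 95% intervals of -2.39 to 0.18, -2.27 to 0.29 and -0.31 to 2.26.

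Sprr2k and Sprr3 had their highest group means after the single dose, through which alone they entered the test. Sprr2k had no reads in any of the 13 unexposed libraries, 17.2, 62.5, 63.1, 64.7 and 92.7 in acute NZM, 8.08, 8.67, 56.1, 78.99 and 108 in acute iNZM and 7.01, 8.47, 11.2, 20.4 and 31.2 in acute WT skin. Its chronic values ran up to 3.86 in NZM, 10.5 in iNZM and 8.71 in WT. It had reads in 8 of the 15 chronic libraries, and chronic and acute values overlapped in iNZM and WT. Against the floor of 3 reads its acute mean was at least 90.7-fold higher in NZM, 70.4-fold in iNZM and 21.6-fold in WT. Chronic minus acute was -4.77 ± 0.67 (adjusted p = 3.48e-05) in NZM, -4.37 ± 0.67 (adjusted p = 8.19e-05) in iNZM and -2.10 ± 0.67 (adjusted p = 0.0127) in WT, the last lost with edgeR, with DESeq2 and without WT chronic 58. Sprr3 is the member best known from wet epithelia. It had 1 read in the 13 unexposed libraries together. After acute UVB it was 16.4, 34.2, 40.1, 44.1 and 50.1 in NZM, 0, 0, 13.4, 24.6 and 37.4 in iNZM and 2.34, 27.8, 41.7, 50.9 and 53.7 in WT. Of the 15 chronic libraries 12 had none, and the highest was 4.65. Acute values exceeded all chronic ones in NZM and WT, but 2 acute iNZM libraries, 6 and 49, had no reads. Chronic minus acute was -5.16 ± 0.73 (adjusted p = 3.48e-05) in NZM, -1.92 ± 0.73 (adjusted p = 0.0968) in iNZM and -4.47 ± 0.73 (adjusted p = 1.03e-05) in WT. The iNZM difference passed the test without library 6 or without library 49, with edgeR on all libraries (adjusted p = 0.0404) and without the 9 follicle-rich libraries (-3.75 ± 0.74, adjusted p = 0.000713).

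**Figure D3:**
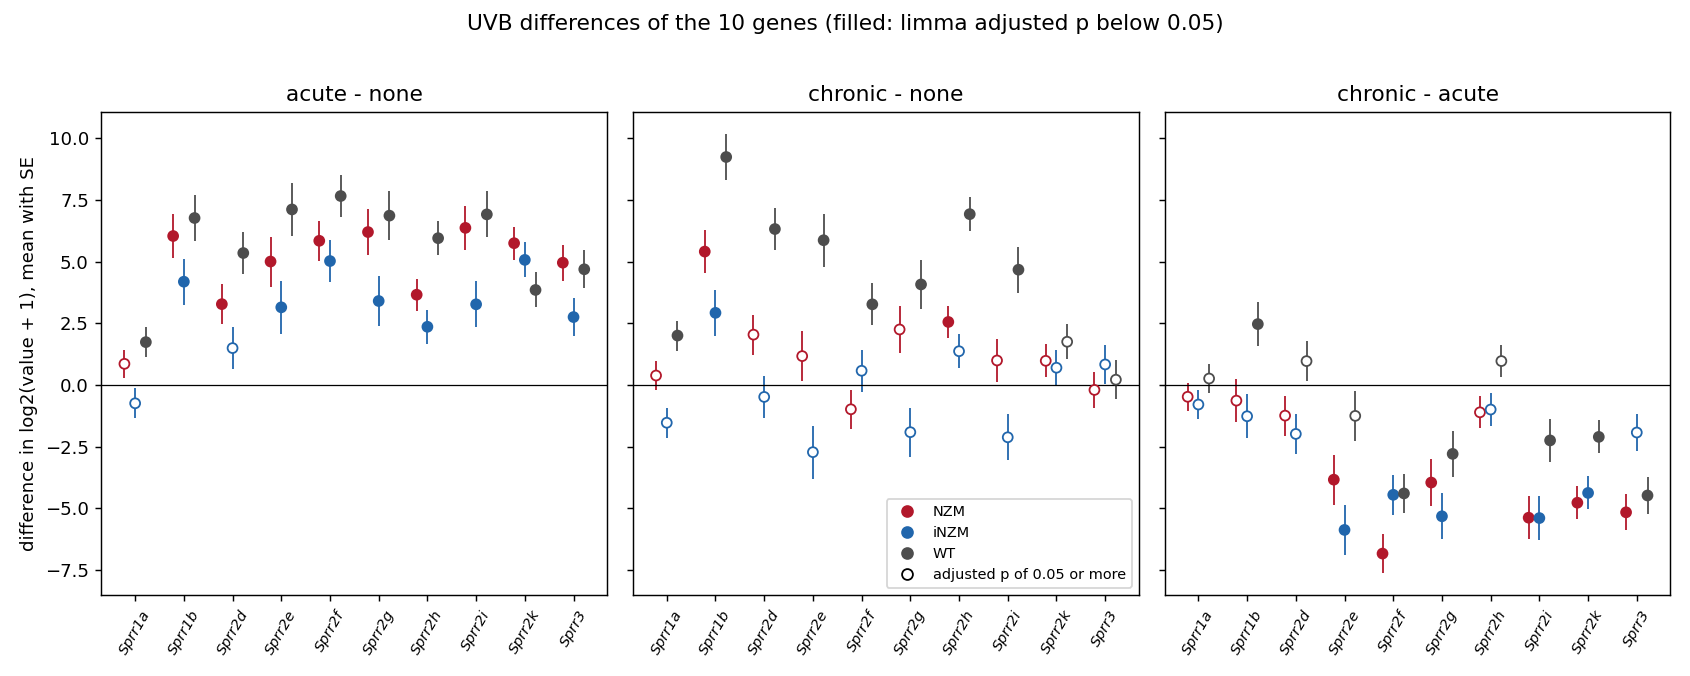
Differences in log2(value + 1) with SE for the 10 members in 3 strains, for acute minus none, chronic minus none and chronic minus acute; filled points have a limma adjusted p below 0.05. Most acute differences lie between 3 and 8. In the right panel Sprr2e, Sprr2f, Sprr2g and Sprr2i lie below 0 in every strain. Sprr2k and Sprr3 do too, but they entered the test only by being high in acute libraries.

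Values per kilobase of exon allow genes to be compared with each other. In acute NZM skin the order was Sprr1a (13680.0 per kb), Sprr1b (8022), Sprr2d (1539.6), Sprr2h (1150.2), Sprr2f (1116), Sprr2e (925), Sprr2g (913), Sprr2i (597), Sprr2k (94.3) and Sprr3 (30.3). Each pair of neighbours from Sprr2d to Sprr2g differed by less than the larger of their SDs, which were 224 to 610.2. Summed over the 10 genes, the level per kb was 9091 ± 4823 (SD, n = 5) in unexposed NZM, 18066 ± 5227 (n = 4) in unexposed iNZM and 1700.2 ± 781 (n = 4) in unexposed WT skin. After acute UVB the sums were 28068 ± 8720.4 (n = 5), 24619 ± 20003 (n = 5) and 10388 ± 3531 (n = 5), and after chronic UVB 16210 ± 1889 (n = 5), 15760 ± 16917 (n = 5) and 22292 ± 12492 (n = 5). The makeup of the sum also changed. Sprr1a took 90.3%, 94.98% and 96.8% of it in unexposed NZM, iNZM and WT skin and 49.4%, 55.8% and 52.0% after acute UVB. In chronic WT skin Sprr1b took 59.3% and Sprr1a 30.6%. Sprr4, which is outside this sum, was 7901, 21919 and 1321 per kb in unexposed NZM, iNZM and WT skin. The SPRR2 members and Sprr3 together were 23.9 ± 16.4 (SD, n = 4), 2757 ± 1151 (n = 5) and 2254 ± 1242 (n = 5) per kb in unexposed, acute and chronic WT skin. In NZM they were 396 ± 233 (n = 5), 6366 ± 2196 (n = 5) and 1446 ± 768 (n = 5). Sprr2a3, an SPRR2 row outside the 10 members, was 65.9, 6.19 and 1936 per kb in the same WT groups. These sums therefore do not rank the regimens for all SPRR2 genes.

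**Figure D4:**
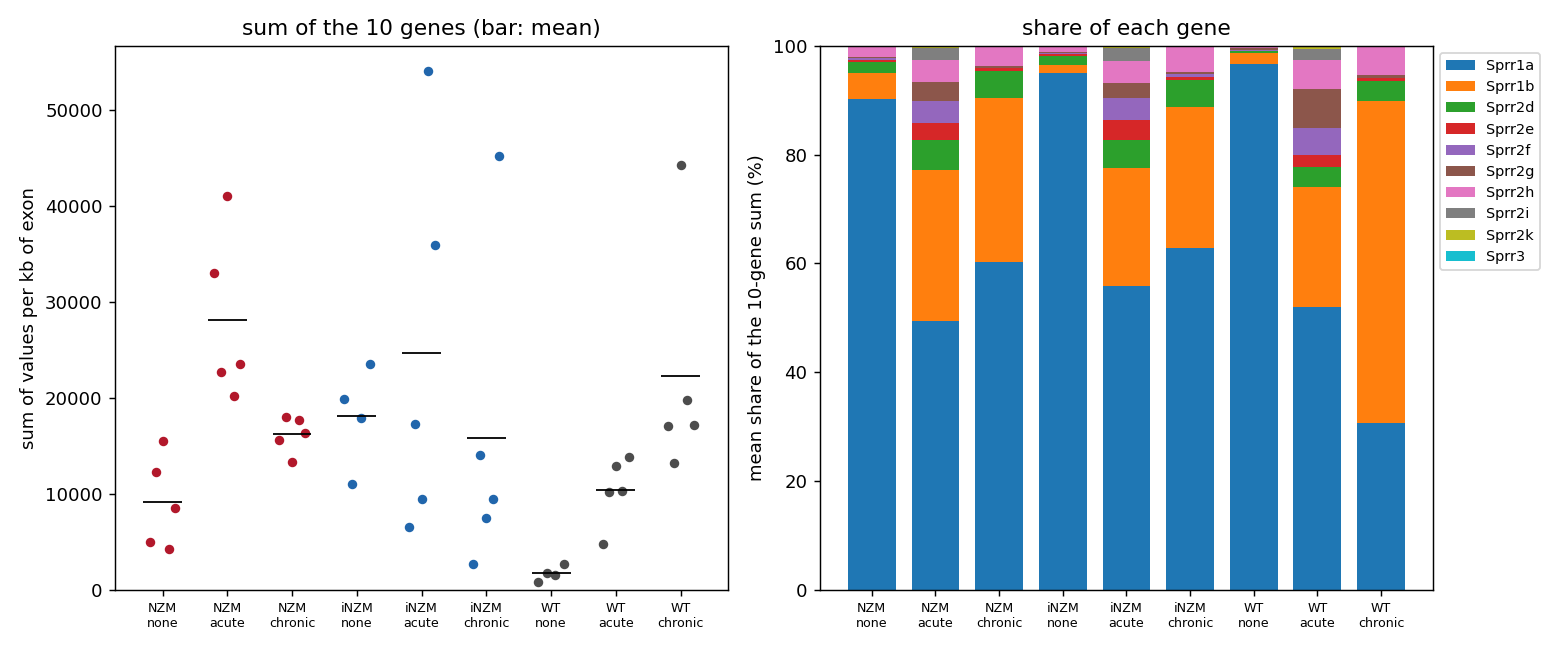
Left, sum of the 10 members per kilobase of exon in each library (bar: mean); right, mean share of each member in that sum, by strain and UVB regimen. Sprr1a makes up over 90% in unexposed skin and 49.4% to 55.8% after acute UVB, and Sprr1b leads in chronic WT skin.

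Without UVB several members were higher in the NZM lines than in WT skin. Against WT, 5 of 10 were higher in NZM (15% of all genes differed in either direction) and 7 in iNZM (9.78%), and none was lower. Sprr2d was 25.7, 91.7, 134, 153 and 202 in NZM, 72.9, 196, 212 and 423 in iNZM and 2.32, 2.75, 8.74 and 8.90 in WT. All NZM and iNZM libraries were above the highest WT library. The log2 difference from WT was 4.10 ± 0.86 (adjusted p = 0.000794) in NZM and 5.01 ± 0.91 (adjusted p = 0.000128) in iNZM. Sprr1a, Sprr2e, Sprr2f and Sprr2h were also higher in both lines, by 2.26 ± 0.61 to 4.13 ± 1.08 in NZM, and Sprr1b and Sprr2i in iNZM. No member was called between iNZM and NZM (0.0313% of all genes). At an unadjusted limma p below 0.05 there were 1 member and 1082 of all 19170 genes. The iNZM calls of Sprr1b were lost without iNZM unexposed 37 or WT unexposed 41 or 44, and those of Sprr2f without iNZM unexposed 37 or 39 or WT unexposed 43 or 44. At a pseudocount of 8 the calls of Sprr2e (1.72 ± 0.78, adjusted p = 0.139) and Sprr2f (1.12 ± 0.65, adjusted p = 0.273) in NZM were lost, as were those of Sprr2f (1.19 ± 0.69, adjusted p = 0.318) and Sprr2i (1.88 ± 0.71, adjusted p = 0.0876) in iNZM. Unexposed WT skin held 0 reads of Sprr2e and of Sprr2i and 2 of Sprr2f. Sprr1b in NZM gained a call without NZM unexposed 31 or 32 or WT unexposed 45.

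After acute UVB no member was called different between NZM and WT (13% of all genes) or between iNZM and NZM (0.224%). At an unadjusted limma p below 0.05 there were 3 members and 4937 of all 19170 genes between NZM and WT. Between iNZM and NZM there were 1 member and 735 genes. Between NZM and WT, 7 members were higher in NZM when only these groups entered the fit, such as Sprr2d (adjusted p = 0.00409) and Sprr1a (adjusted p = 0.00631), and 5 with sample quality weights. The shares of all genes in this paragraph come from the main fit and do not apply to such repeats. Sprr3 was lower in iNZM than in WT, -1.94 ± 0.73 (24.7% of all genes differed). Neither edgeR nor DESeq2 called Sprr3; each called Sprr2d, as higher in iNZM. The limma call of Sprr3 was lost without iNZM acute 6 or 49 or WT acute 13, 15, 51 or 52. Without the 9 libraries high in follicle markers, which leaves 3 acute iNZM libraries, the Sprr3 difference was -0.10 ± 0.59 and 6 other members were higher in iNZM than in WT, such as Sprr2d at 2.73 ± 0.65 (adjusted p = 0.00403). In NZM, 5 members were then higher than in WT. The acute response itself, acute minus none, was not called different for any member between NZM and WT (0.115% of all genes), iNZM and NZM (0.00522%) or iNZM and WT (0.37%). At an unadjusted limma p below 0.05 there were 1, 3 and 7 members, beside 1947, 1215 and 2449 of all 19170 genes. DESeq2 called 3 in the last of these (Sprr2e, Sprr2h and Sprr2i), as well as Sprr2d between NZM and WT after acute UVB, and edgeR called 0 in each of these 5 comparisons. Sprr2h in the last was also called without iNZM acute 9, and Sprr2k between NZM and WT without NZM acute 5 or WT acute 51.

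The chronic response differed between strains. For NZM against WT it was smaller in NZM for 4 members (7.58% of all genes differed): -4.28 ± 1.18 (adjusted p = 0.0224) for Sprr2d, -4.70 ± 1.48 (adjusted p = 0.0437) for Sprr2e, -4.25 ± 1.17 (adjusted p = 0.022) for Sprr2f and -4.37 ± 0.95 (adjusted p = 0.00567) for Sprr2h. For iNZM against WT it was smaller in iNZM for 7 members (4.61%), from -3.53 ± 0.86 for Sprr1a to -8.59 ± 1.52 for Sprr2e. These differences include the lower unexposed level of WT skin. In unexposed WT skin Sprr2e and Sprr2i had no reads, so the fitted values for these genes depend on the pseudocount of 1. No member, and 0% of all genes, was called for this response between iNZM and NZM (limma); 2134 genes and 5 members had an unadjusted p below 0.05, and edgeR and DESeq2 called 0 members. Compared directly after chronic UVB, no member was called between NZM and WT (7.88% of all genes) or between iNZM and NZM (0.428%). At an unadjusted limma p below 0.05 there were no members and 3989 of all 19170 genes between NZM and WT. Between iNZM and NZM there were 3 members and 1926 genes. Sprr1b, Sprr2e and Sprr2g were lower in iNZM than in WT (14.5% of all genes), by -2.94 ± 0.88, -3.20 ± 1.01 and -3.02 ± 0.94 as iNZM minus WT. With edgeR none of these 3 was called, and they were lost without WT chronic 28; without iNZM chronic 24 none was called. Without the follicle-rich libraries the members called lower in iNZM than in WT were Sprr1a, Sprr2e, Sprr2i and Sprr2k. For the NZM response 1 member, Sprr2h, was called at a pseudocount of 8, and Sprr2e was lost without any 1 of the libraries compared other than WT chronic 27 and NZM unexposed 31.

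Markers of keratinocytes and of other skin cells also differed between these groups. Of 6 suprabasal keratinocyte markers (Krt1, Krt10, Krt2, Dsg1a, Dsc1, Krtdap), 4, 4 and 6 fell after acute UVB in NZM, iNZM and WT and none rose, while the small proline-rich genes rose. Their summed value was 277476 to 548463 in unexposed and 49654 to 199965 in acute NZM skin, 225109 to 482168 and 11587 to 86915 in iNZM, and 186324 to 348440.3 and 21167 to 70656 in WT. After chronic UVB the sums were 103519 to 1159716, 60296 to 592340 and 338511 to 1527473, in the same order of strains. Of the 17 follicle markers, 11 were higher after chronic UVB in NZM and 13 in iNZM, and none in WT. Their sums were 1319.9 to 2272 in unexposed and 1556 to 492488 in chronic NZM skin, 1255 to 1572 and 1243 to 1129258 in iNZM, and 1031 to 17135 and 1419 to 6907 in WT; Krt34 had no reads in unexposed iNZM skin and Krt34 and Krt72 had none in chronic WT skin. Of 5 tested neutrophil markers, 4, 3 and 4 rose after acute UVB, and the sum of 6 went from 572 to 1505 unexposed to 5112 to 24644 in NZM, from 1289.5 to 2214 to 1157 to 40737 in iNZM and from 512 to 722 to 2185 to 7478 in WT. Ly6g had no reads in any unexposed or chronic group. Their part in the members' differences was not tested, apart from the follicle-rich libraries.

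The 2 acute iNZM libraries lowest in all 10 members, 6 and 49, had follicle scores of 7.29 and 6.95. Sprr2i, for example, averaged 36.9 in these 2 and 739 in the other 3. NZM acute 5, with a follicle score of 7.30, was the lowest of its group for Sprr2i (161). Its mean over the 10 members (centred log2(value + 1)) was 2.28, above every acute WT library. In chronic iNZM skin the direction varied by gene. Sprr1a averaged 15271 in the 3 follicle-rich libraries and 1418 in the 2 others, and Sprr2d 246 and 339. Without the 9 follicle-rich libraries the acute rise in iNZM was larger for the members called, such as Sprr2f at 6.38 ± 0.53, and 9 members in place of 8 were called. Chronic against acute UVB in iNZM then gave 9 lower members in place of 5, with 3 acute and 2 chronic libraries left, and chronic against no UVB gave Sprr1a (-3.23 ± 0.58) and Sprr2i (-2.60 ± 0.86) as lower and no longer called Sprr1b. The 5 calls of chronic against acute UVB in iNZM were lost when only the groups compared entered the fit. The share of all genes called in these repeats is not given here.

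**Figure D5:**
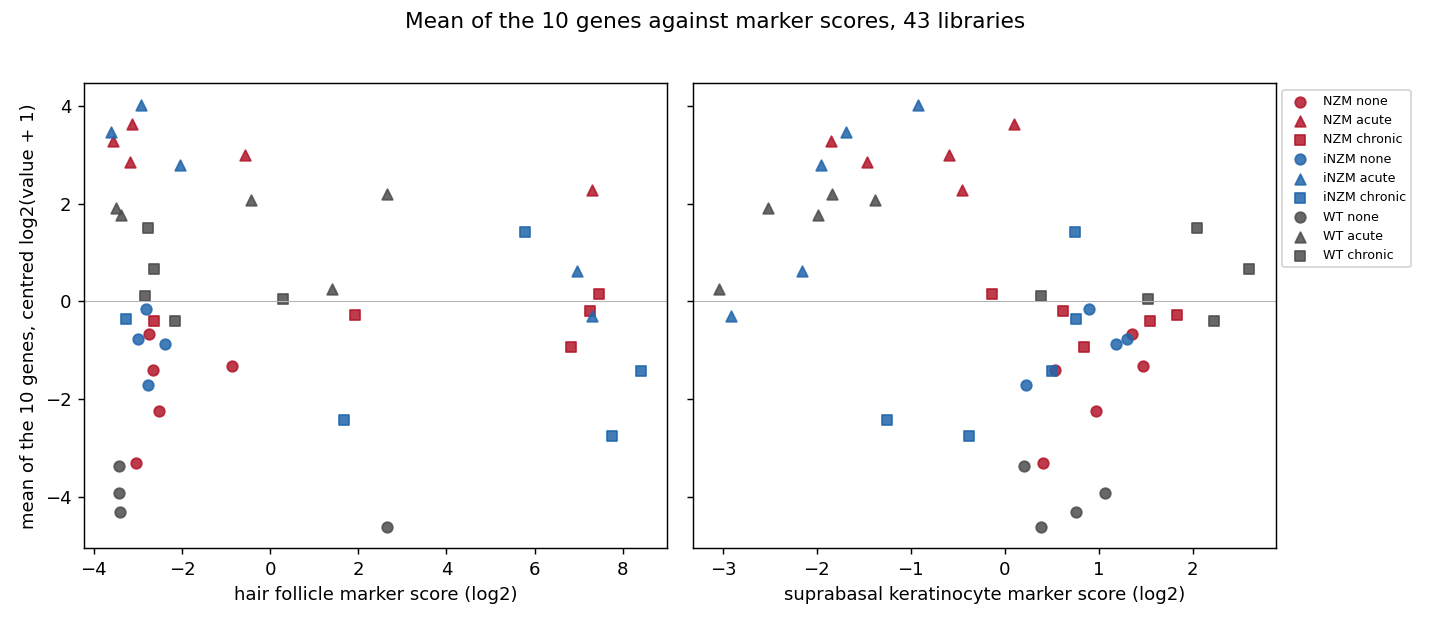
Mean of the 10 members (centred log2(value + 1)) in each of 43 libraries against the hair follicle marker score (left) and the suprabasal keratinocyte marker score (right); colour gives the strain and shape the regimen. Most acute libraries (triangles) combine high member levels with low suprabasal scores. The 2 acute iNZM libraries with follicle scores near 7 lie low among the acute ones, and so does WT acute 50 at 1.41. NZM acute 5, with a follicle score of 7.30, has a member mean of 2.28, above every acute WT library. The member mean includes Sprr2k and Sprr3, which entered the test only by being high in acute libraries.

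Within a regimen the members moved together to different degrees. Over the 15 acute libraries, which mix 3 strains and share 1 value of depth between genes, Spearman correlations between members other than Sprr3 were 0.718 (Sprr1a and Sprr2g) to 0.989 (Sprr2d and Sprr2i). Those of Sprr3 with the others were 0.141 (Sprr1a) to 0.499 (Sprr2g). Over the 15 chronic libraries Sprr1a correlated with other members at -0.317 to 0.297. Across all 43 libraries and 12370 genes with a mean of at least 100, the genes closest in pattern to the mean of the members were Lce3d (rho = 0.938), Krt6a (0.936), Urah (0.928), Lce3c (0.907), Epop (0.906), Pmaip1 (0.905), Slpi (0.899) and S100a9 (0.894). That mean includes Sprr2k and Sprr3, which entered the test only by being high in acute libraries.

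Other envelope proteins did not follow the small proline-rich genes as a group. Of 37 tested, 6 rose and 20 fell after acute UVB in NZM, 6 and 24 in iNZM, and 6 and 24 in WT, with median differences of -1.43, -1.96 and -2.22. Of all genes, 10.6%, 12.8% and 10.4% rose and 10.7%, 12.4% and 11.3% fell. Lce3d, a late envelope gene of injured skin, rose by 6.61 ± 0.64, 5.37 ± 0.67 and 7.44 ± 0.67, whereas Lce1m fell, with differences of -5.29 ± 0.72 in NZM and -7.20 ± 0.77 in iNZM. After chronic UVB 11 rose and 1 fell in NZM, 8 and 2 in iNZM, and 18 and 1 in WT, Flg (filaggrin) by 3.57 ± 0.79 in iNZM and 6.60 ± 0.79 in WT. Of all genes, 9.2%, 13.1% and 18.4% rose and 9.78%, 15.7% and 16.8% fell after chronic UVB. Set against acute UVB, 19, 22 and 29 envelope genes were higher and 3, 3 and 1 lower after chronic UVB in NZM, iNZM and WT, beside 3.79%, 3.81% and 19.6% higher and 3.76%, 4.45% and 17.7% lower of all genes. Of the 4 transglutaminase genes, Tgm3 fell in WT after acute UVB (-2.96 ± 0.74) and none was called in NZM or iNZM. After chronic UVB 1 rose in NZM, Tgm3 (2.52 ± 0.70), and 1 fell in iNZM, Tgm2. In WT 3 rose, Tgm3 (3.34 ± 0.74), Tgm5 (1.59 ± 0.44) and Tgm1 (1.03 ± 0.36), and Tgm2 fell (-2.23 ± 0.56).

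Among 24 regulators, 4 rose and 4 fell after acute UVB in NZM, 4 and 5 in iNZM, and 5 and 7 in WT, with medians of 0.04, -0.26 and 0.12. Of all genes, 10.6%, 12.8% and 10.4% rose and 10.7%, 12.4% and 11.3% fell. Fosl1, an AP-1 subunit, rose by 4.14 ± 0.50, 3.37 ± 0.53 and 4.83 ± 0.53. It was lower after chronic than after acute UVB, by -3.40 ± 0.50, -2.89 ± 0.50 and -4.04 ± 0.50 as chronic minus acute. Pou2f3, an octamer-binding factor of the epidermis, fell, with differences of -2.10 ± 0.27, -2.38 ± 0.29 and -3.18 ± 0.29 after acute UVB. After chronic UVB 2 regulators rose and 3 fell in NZM, 0 and 5 in iNZM, and 6 and 2 in WT, where 9.2%, 13.1% and 18.4% of all genes rose and 9.78%, 15.7% and 16.8% fell. These shares of all genes also stand beside the counts of the next lists. Of 19 tested cytokines that act on keratinocytes, 9, 7 and 10 rose after acute and 1, 1 and 2 after chronic UVB in NZM, iNZM and WT, while 0, 2 and 2 fell after acute and 0, 2 and 0 after chronic UVB. Il24 rose by 7.51 ± 0.89, 6.58 ± 0.94 and 5.31 ± 0.94 after acute UVB. Of 15 stress keratins and alarmins, 10, 7 and 8 rose after acute UVB and 7, 4 and 11 after chronic UVB, and 2 fell in iNZM under either regimen. Their median acute differences were 2.80, 1.83 and 2.42, and those of the cytokines 1.06, 0.97 and 1.90.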

How the data were processed

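Poly-A RNA of 43 back-skin libraries was sequenced as paired reads of 151 bases, per the labels' protocols. The deposited signal holds, for each gene, reads scaled by the size factor of its library. The submitters' processing notes name STAR, HTSeq, DESeq2 and mm10, while versions, annotation and strand setting are not given in the sources used here. Multiplying back gave whole reads for 100% of values, to within 0.01 read. No 2 replicates were alike within sampling noise (lowest chi-square per gene 16.9), so none were merged.

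The members, gene lists and rules were chosen with earlier results of these data known. Values were tested with limma-trend (3.58.1, R 4.3.3) on log2(value + 1), which understates changes of low genes, with 1 mean per group over all 43 libraries, for the 19170 genes that reached 10 in 4 or more libraries, two-sided, with Benjamini-Hochberg adjustment at 0.05. Errors are SE unless SD is written. There were 24 comparisons. All 10 members were named, with up to 4 called genes per list by largest difference and the 8 genes closest in rank correlation. Where a group had no reads, a floor of 3 reads over the group was used. The fit was repeated with other pseudocounts (0.5, 8), without the filter or with 50 as the minimum, with TMM or quantile normalization, with only the groups compared, with sample quality weights, with sample number (46 and up against lower) as a covariate, with DESeq2 (1.42.0) or edgeR (4.0.16) on the recovered reads, at an adjusted p of 0.01, and without each replicate in turn. A follicle score covariate, and leaving out the 9 libraries with a score above 5, were chosen after seeing the data. The fits were tested on simulated data. Gene positions came from GENCODE vM21 and promoters from RefSeq (GRCm38.p6). Tables and plots used Python with pandas and matplotlib.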

Additional observations from a re-analysis of the deposited data

Results flagged for a closer look

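In 13 of 70 pairs of a member and a group with a mean of at least 10, 1 library stood apart from the rest of its group by Dixon's criterion. The criterion flags about 1 in 20 by chance only if values are normally distributed, and it was applied here to values without a log scale. Members measured in the same library are also not independent. WT chronic library 28 was the highest for Sprr1a (13592.7), Sprr1b (19207.4), Sprr2f (30.5) and Sprr2h (1582.6). iNZM chronic library 22, which is high in follicle markers, was the highest for Sprr2e (190.5), Sprr2f (144.0), Sprr2g (149.8) and Sprr2i (48.8). Sprr1a reached 34371.4 in iNZM chronic library 25. The other 4 were Sprr1b in unexposed WT library 45 (106.5), Sprr2d in NZM chronic library 18 (1152.8), Sprr2f in NZM chronic library 55 (41.6) and, as the lowest of its group, Sprr2e in WT acute library 50 (39.7).

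The response to chronic UVB differed between strains by an interaction test (limma, adjusted p below 0.05) for 4 members between NZM and WT. The differences in log2 response were -4.28 for Sprr2d, -4.70 for Sprr2e, -4.25 for Sprr2f and -4.37 for Sprr2h. Between iNZM and WT 7 members were called, with -3.53 for Sprr1a, -6.32 for Sprr1b, -6.81 for Sprr2d, -8.59 for Sprr2e, -5.99 for Sprr2g, -5.56 for Sprr2h and -6.79 for Sprr2i.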

How the results depend on the processing

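Of 6116 repeats of a member's difference under another setting, 5837 stayed on the same side of the threshold, 148 lost a call, 130 gained one and 1 called difference changed sign. Among differences not called under either setting 101 changed sign. The called one was Sprr2e in iNZM against WT after chronic UVB, at 0.072 with sample quality weights. The counts of members called moved by over 1.5 times as follows, given without the share of all genes called under the same setting. A pseudocount of 0.5 gave 2 for chronic against no UVB in iNZM and 0 for iNZM against WT after acute UVB. A pseudocount of 8 gave 3 for NZM against WT unexposed, 1 for NZM and 2 for iNZM against WT after acute UVB, 1 for iNZM against WT after chronic UVB and 1 for the chronic response of NZM against WT. Without a filter iNZM against WT after acute UVB gave 0, and with a minimum of 50 it gave 0 and chronic against no UVB in iNZM 3. With only the groups compared in the fit, iNZM gave 5 for acute against no UVB, 0 for chronic against no UVB and 0 for chronic against acute UVB, NZM against WT gave 7 after acute and 1 after chronic UVB, and iNZM against WT gave 0 and 1. Quality weights gave 6 for chronic against no UVB in iNZM, 5 for NZM and 0 for iNZM against WT after acute UVB, 1 for iNZM against NZM after chronic UVB and 1 for their chronic response. On recovered reads, chronic against no UVB in iNZM gave 2 with edgeR and 2 with DESeq2, and iNZM against WT after chronic UVB 0 and 1; DESeq2 also gave 1 for NZM against WT after acute UVB and 3 for the acute response of iNZM against WT. At an adjusted p below 0.01 iNZM gave 5 for acute and 0 for chronic against no UVB, WT gave 2 lower for chronic against acute UVB, iNZM against WT gave 0 after acute and 0 after chronic UVB, and the chronic response of NZM against WT gave 1. With the follicle score as a covariate, chronic against no UVB in NZM gave 4, NZM against WT after acute UVB 2, and iNZM against WT 0 after acute and 0 after chronic UVB. Without the 9 follicle-rich libraries, iNZM gave 2 for chronic against no UVB and 9 for chronic against acute UVB, and after acute UVB NZM against WT gave 5 and iNZM against WT 6. TMM, quantile normalization and the sample-number covariate moved no count this far. The cause was not tested. Leaving out 1 library gave 0 to 1 for NZM against WT, iNZM against WT and the acute response of iNZM against WT after acute UVB, 0 to 1 for iNZM against NZM and 0 to 5 for iNZM against WT after chronic UVB, 0 to 3 for chronic against no UVB in iNZM, and 3 to 6 for the chronic response of NZM against WT. No paired analysis was possible because the sample numbers are not shared between groups. Depth limits Sprr2k and Sprr3, whose values outside acute UVB rest on few or no reads.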

Other observations

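The other Sprr rows of the table took courses that differed from one another. Sprr2a3 was 40.3, 162, 254 and 304 in unexposed WT skin, 0, 0, 6.07, 9.70 and 73.5 after acute and 2857, 3693, 3844, 8460.0 and 9048 after chronic UVB. Its chronic libraries lay above all others of that strain, and chronic minus acute was 9.79 ± 0.92 on the log2 scale (limma adjusted p = 3.5e-10). It shares 18.8% of its read-length stretches with Sprr2a1 and Sprr2a2, so its count is less certain than those of the members. After acute UVB Sprr2a3 fell in iNZM (-4.30 ± 0.97) and WT (-4.75 ± 0.97). Sprr2b rose after chronic UVB in NZM (2.80 ± 0.99) and WT (5.87 ± 1.05). Sprr2j-ps rose after acute UVB in NZM (5.11 ± 0.82), iNZM (2.81 ± 0.88) and WT (4.86 ± 0.88). Sprr4 fell in iNZM skin, with differences of -2.23 ± 0.82 after acute and -3.16 ± 0.82 after chronic UVB, and rose after chronic UVB in WT skin (2.17 ± 0.82).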
